A study of Mus musculus with 13 samples.

Results

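The transcriptome described here is that of control 2-cell mouse embryos, represented by 3 of the 13 libraries of the series and 3 of its 9 embryo libraries. The libraries were chosen by their labels alone. They were made from groups of 2-cell embryos obtained by in vitro fertilisation (IVF) with sperm of Swiss males. The fathers had received phosphate-buffered saline (PBS), the vehicle, by intraperitoneal injection on 5 days and no acrylamide, the compound studied in the other groups. Each library pools embryos, and the strain of the egg donors is not given in the labels. The libraries are named control 1, control 2 and control 3 after their labels, which do not say whether they come from separate fathers, egg donors or fertilisations. Values are FPKM (fragments per kilobase of transcript, scaled to the mapped fragments of the library), a level corrected for transcript length, summed over the transcripts of a gene. There is 1 group and no comparison between groups, so every value below is a description without a test.

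At ovulation the mouse egg is transcriptionally silent and carries a store of maternal mRNA, which is translated, deadenylated and degraded around fertilisation. The embryo's own genome is transcribed weakly in the zygote and strongly in the 2-cell embryo, when homeobox factors such as Dux and the Obox proteins and endogenous retroviral promoters drive a short-lived set of genes that includes Zscan4, Tdpoz and Usp17-like families. A 2-cell embryo therefore holds a declining maternal and a rising embryonic population of transcripts, and its mRNA content at one moment mixes both.

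The 4 markers of the stage were present in every library. Zscan4d, a zinc finger and SCAN domain gene known for its burst of transcription in 2-cell embryos, was at 164, 227 and 255 FPKM in control 1, 2 and 3. Tdpoz2, a TRAF and POZ domain gene of the same wave, was at 392, 335 and 411 FPKM. Dppa3 (also called Stella), a maternal protein that shields the egg-derived genome from loss of DNA methylation, was at 1999, 1989.6 and 1430.3 FPKM. Zp3, the sperm-binding glycoprotein of the zona pellucida, was the lowest of the 4 markers at 34.5, 35.4 and 14.6 FPKM. For comparison, the median level over the 9762 genes whose mean reached 1 FPKM was 8.62 FPKM, and all 4 markers lay above it in all 3 libraries.

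TATAA was found at different shares in the promoters of the 2-cell activated lists, defined below, and of oocyte genes. For this reason the upstream sequences of some of these genes are shown. They cover 250 bases before to 50 bases after the annotated start, 300 bases in all, and are given 5′ to 3′ on the strand of the gene from RefSeq (GRCm38.p6, the build also called mm10). Capitals mark TATAA in the 80 bases before the start, the core of a TATA box, and CCAAT, the motif known for binding nuclear factor Y. Position -1 is the base just before the annotated start. The 4 listed Zscan4 genes lie on chromosome 7, at chr7:11166099-11166398 (minus strand) for Zscan4d, chr7:11005495-11005794 (plus strand) for Zscan4c, chr7:11397665-11397964 (plus strand) for Zscan4f and chr7:10905001-10905300 (minus strand) for Zscan4b.
Zscan4d: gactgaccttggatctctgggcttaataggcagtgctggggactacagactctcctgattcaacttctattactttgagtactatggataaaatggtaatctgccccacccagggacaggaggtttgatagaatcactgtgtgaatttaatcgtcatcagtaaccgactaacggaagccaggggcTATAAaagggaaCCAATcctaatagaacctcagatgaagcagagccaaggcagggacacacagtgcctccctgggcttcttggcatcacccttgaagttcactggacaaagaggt
Zscan4c: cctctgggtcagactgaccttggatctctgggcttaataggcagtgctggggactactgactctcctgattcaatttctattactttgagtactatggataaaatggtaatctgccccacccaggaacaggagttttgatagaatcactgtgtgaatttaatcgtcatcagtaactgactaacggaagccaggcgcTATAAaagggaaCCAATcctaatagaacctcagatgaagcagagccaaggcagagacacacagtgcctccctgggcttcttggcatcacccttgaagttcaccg
Zscan4f: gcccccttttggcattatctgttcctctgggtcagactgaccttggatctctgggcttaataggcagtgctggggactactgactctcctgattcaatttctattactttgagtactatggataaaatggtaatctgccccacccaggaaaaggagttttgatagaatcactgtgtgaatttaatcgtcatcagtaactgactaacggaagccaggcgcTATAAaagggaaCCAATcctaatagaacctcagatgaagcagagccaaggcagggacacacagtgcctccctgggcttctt
Zscan4b: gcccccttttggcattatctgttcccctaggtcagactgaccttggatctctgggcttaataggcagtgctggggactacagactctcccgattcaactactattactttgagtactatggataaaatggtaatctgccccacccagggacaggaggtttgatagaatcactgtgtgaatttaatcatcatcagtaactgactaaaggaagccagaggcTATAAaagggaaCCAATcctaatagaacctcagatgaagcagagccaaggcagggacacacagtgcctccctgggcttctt

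The Zscan4 promoters were near copies of each other. Between pairs, 95.3% to 99.3% of the aligned bases were identical, in an alignment without gaps. The block TATAAaagggaaCCAAT stood in all 4, and only its distance to the annotated start differed: TATAA began at position -65 in Zscan4d, -54 in Zscan4c and -31 in Zscan4f and Zscan4b. Reads from such copies can fit several genes, and how the authors assigned them is not given in the sources used here. The levels of single copies and of the family are therefore both uncertain.

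For contrast, 3 promoters of oocyte genes follow: Oog1 at chr12:87602415-87602714 (plus strand), Oog3 at chr4:144162602-144162901 (minus strand) and Zp3 at chr5:135979855-135980154 (plus strand). Oog1 and Oog3 encode oogenesins, leucine-rich repeat proteins of the oocyte and early embryo, and were the most abundant members of their list.
Oog1: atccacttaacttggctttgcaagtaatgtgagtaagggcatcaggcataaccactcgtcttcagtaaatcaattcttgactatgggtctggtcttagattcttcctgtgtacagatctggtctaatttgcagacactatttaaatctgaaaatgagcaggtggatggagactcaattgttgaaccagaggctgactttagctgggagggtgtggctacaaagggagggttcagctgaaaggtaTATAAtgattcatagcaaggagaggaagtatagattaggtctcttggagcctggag
Oog3: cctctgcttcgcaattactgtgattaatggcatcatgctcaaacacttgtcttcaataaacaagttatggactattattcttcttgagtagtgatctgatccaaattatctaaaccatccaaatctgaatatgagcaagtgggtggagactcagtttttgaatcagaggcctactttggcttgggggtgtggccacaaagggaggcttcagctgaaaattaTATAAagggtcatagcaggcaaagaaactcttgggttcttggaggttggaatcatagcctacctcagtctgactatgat
Zp3: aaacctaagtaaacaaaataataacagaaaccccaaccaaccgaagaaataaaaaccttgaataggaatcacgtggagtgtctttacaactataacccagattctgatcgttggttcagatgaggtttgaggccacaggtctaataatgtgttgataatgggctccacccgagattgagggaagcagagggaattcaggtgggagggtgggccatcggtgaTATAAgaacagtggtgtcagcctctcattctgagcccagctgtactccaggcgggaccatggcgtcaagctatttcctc

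In these 3 promoters TATAA began at position -6 in Oog1 and -29 in Oog3 and Zp3, and none held CCAAT or its reverse complement ATTGG. These examples are not typical of the maternal lists as a whole, where TATAA was rarer and CCAAT more frequent, as the counts that follow show. Over lists, TATAA was searched on the gene's strand in the 80 bases before the start, and CCAAT on both strands of the whole window. TATAA was found in 7.01% of all 27025 RefSeq promoters and in 4.0% of the 7969 promoters of genes whose mean reached 1 FPKM. It was found in 20 of the 46 promoters of the 2-cell activated lists defined below, or 43.5%, and in 7 of the 96 promoters of the maternal lists, or 7.29%. CCAAT was found in 37.9% of all promoters and in 41.1% of those of genes whose mean reached 1 FPKM. It was found in 46.9% of the maternal and 54.3% of the activated promoters. CpG dinucleotides were fewer in both kinds of list than in expressed genes at large: the median was 2.5 per promoter in the activated lists and 6.5 in the maternal lists, against 21 over the genes whose mean reached 1 FPKM and 7 over all promoters. The activated lists were not alike. The genome activation transcription factors had a median of 26 CpG and TATAA in 1 of 10 promoters. The other Dux-driven genes had a median of 2 CpG and TATAA in 10 of 17. Family members share their sequence, so these counts are not of independent promoters, and a match of letters is not a bound site.

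The control libraries listed 13933, 13675 and 14392 genes, of which 12397 were listed in all 3. These common genes held at least 99.8% of the summed FPKM of each library. Genes listed in a single library numbered 1811 and were low, with a median of 0.1 FPKM and a highest value of 10.36 FPKM. A gene missing from a library is counted as 0, which may also be a failed estimate, and the depth of the libraries is unknown because only FPKM were used. In mean level, 9762 genes reached 1 FPKM, 4519 reached 10 FPKM, 655 reached 100 FPKM and 21 reached 1000 FPKM. Nearly all of the mass came from protein-coding genes, which numbered 15644 of the 15677 genes matched to RefSeq and held 99.9% of summed FPKM in each library. Only 11 of the matched genes were long noncoding RNAs in RefSeq, and no mitochondrially encoded gene was listed. Whether such genes were in the set that the authors quantified was not examined, so their absence here is not a measured absence.

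The transcriptome was concentrated in few genes. Ranked by mean share, 20 genes held 25% of the summed FPKM, 310 genes held 50%, 1366 genes held 75% and 3328 genes held 90%. Taken library by library, 50% was held by 316, 251 and 331 genes in control 1, 2 and 3. The count of 310 rose to 619 without the 10 most abundant genes. It rose to 504 without families of near-identical copies (Zscan4, Tdpoz, Usp17-like, Obox, oogenesin and Pramel genes) and all genes named Gm. These include Gm20594, described below, and leaving out Gm20594 alone gave 490. The 30 most abundant genes held 27.8%, 31.0% and 23.9%, or 27.6% ± 3.56 (SD, n = 3). Of these 30 genes 11 were in the maternal lists and 1, Obox5, was in the activated lists.

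A single gene accounted for most of the difference in concentration. Gm20594, a protein-coding gene model of 334 bases at chr6:79818031-79818364 that RefSeq also calls Mtrnr2l, was at 54479, 71356 and 36023 FPKM. Its share was 13.5% of summed FPKM in control 1, 17.7% in control 2 and 10.5% in control 3, a mean of 13.9% ± 3.62 (SD, n = 3). Human genes of the MTRNR2L name are nuclear sequences resembling the mitochondrial 16S ribosomal RNA gene, and whether reads of mitochondrial ribosomal RNA were counted in Gm20594 was not tested. Without it, chromosome 6 held 5.31% of the remaining FPKM instead of 18.5%, and 490 genes rather than 310 were needed to hold 50%.

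The next genes by level were several-fold lower. Zbed3, a partner of the subcortical maternal complex that in the mouse zygote takes part in placing the spindle, was at 9945, 7593 and 6209 FPKM. Its locus, chr13:95323605-95337842, overlaps the small nucleolar RNA gene Snora47 and a second small nucleolar RNA. Ccdc82, a coiled-coil protein gene at chr9:13246917-13292517, was at 8986, 9331 and 5235 FPKM, and overlaps the small nuclear RNA gene Gm26189. In all, 13 of the 30 genes overlap another RefSeq gene, and how reads in such overlaps were assigned is not given in the sources used here. Omt2b, an oocyte maturation gene at chr9:78328030-78329620, was at 5994, 3884 and 1944 FPKM, the widest spread among the 30 (coefficient of variation, the SD divided by the mean, 0.514). Its neighbour Omt2a was at 1549, 1093 and 547 FPKM, with the same order of the libraries.

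**Figure D1:**
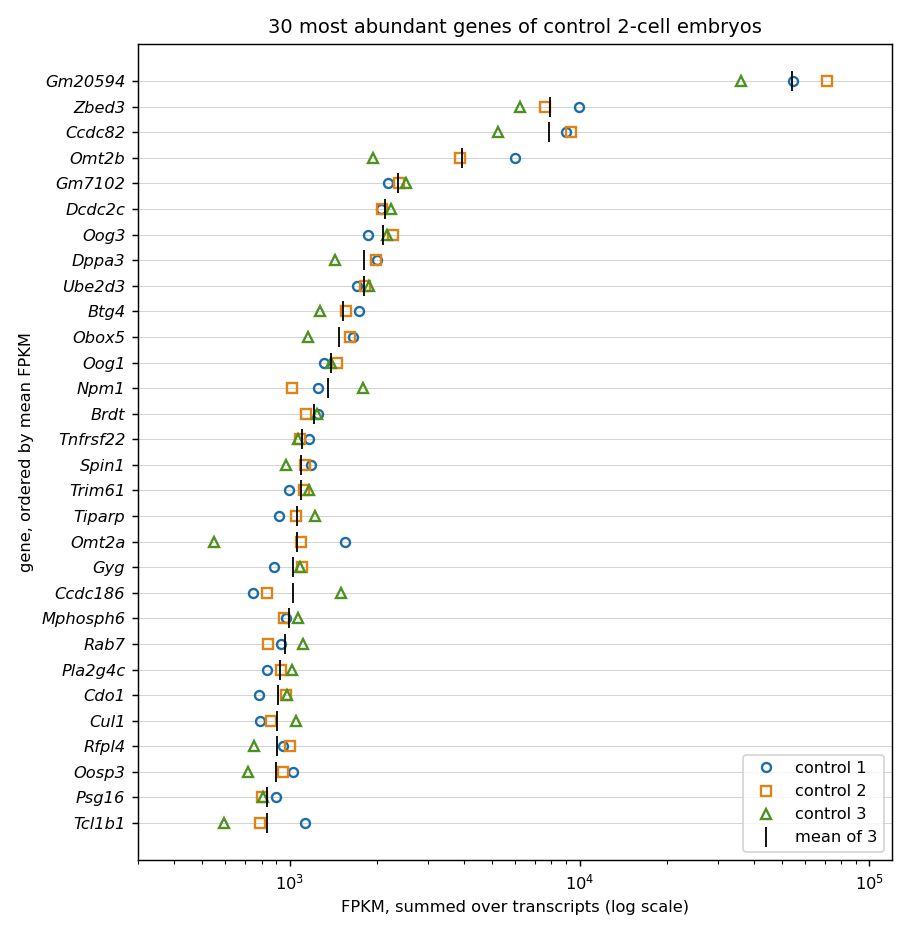
FPKM of the 30 most abundant genes, ordered by mean, with 1 symbol for each control library and a bar for the mean of 3, on a log scale. Gm20594 stands apart at 36023 to 71356 FPKM, and most genes below the first 4 have library values that nearly coincide, with Omt2a, Ccdc186, Tcl1b1 and Npm1 spread more widely.

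From the fifth gene on, the levels ran from 2360.0 FPKM (Gm7102) to 838 FPKM (Tcl1b1). Several of these genes belong to the handling of maternal RNA and protein. Btg4, the adaptor that brings the CCR4-NOT deadenylase to maternal mRNAs, was at 1741, 1569 and 1277 FPKM. It shares its locus with Hoatz and the microRNA genes Mir34b and Mir34c. Ube2d3, a ubiquitin-conjugating enzyme, was at 1704, 1818 and 1881 FPKM, and Cul1, the scaffold of SCF ubiquitin ligases, at 792, 861 and 1056 FPKM. Rfpl4, a RING finger protein of the oocyte, was at 951, 1002 and 756 FPKM. Ube2d3 and Cul1 were lowest in control 1 and highest in control 3, while Btg4 had the opposite order.

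Others of the 30 have roles in chromatin, metabolism or membrane traffic. Spin1, a reader of methylated histone H3 known as an abundant egg protein, was at 1183, 1133 and 975 FPKM. Brdt, a bromodomain protein best known from spermatogenesis, was at 1254, 1139 and 1240.0 FPKM. Npm1, a nucleolar protein of ribosome assembly, was at 1249, 1019.6 and 1789 FPKM and was highest in control 3. Gyg, the glycogenin that primes glycogen synthesis, was at 885, 1108 and 1089 FPKM. Cdo1, which oxidises cysteine, was at 784, 969.9 and 977 FPKM. Values for these genes stayed within a factor of 2 between libraries. Tiparp, a mono-ADP-ribosyltransferase, was at 919, 1052 and 1221 FPKM, and Rab7, a small GTPase of late endosomes, at 937, 843 and 1109 FPKM. With only the highest transcript of each gene, Rab7, Rfpl4 and Npm1 had means of 557, 532 and 822 FPKM in place of 963, 903 and 1353 FPKM, all below the sum of the last of the 30, 838 FPKM. Pla2g4c, a cytosolic phospholipase A2, was at 835, 931 and 1019 FPKM, Tnfrsf22, a decoy receptor of the TNF family, at 1167, 1084 and 1069.9 FPKM and Mphosph6, associated with the nuclear exosome, at 969, 957 and 1069 FPKM. The remaining members of the 30, Dcdc2c, Trim61, Ccdc186 and Psg16, had means of 2130, 1095, 1027 and 838 FPKM. Over all 30 genes the coefficient of variation ran from 0.0468 (Dcdc2c) to 0.514, and 5 were above 0.3.

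Maternal transcripts were described by 10 lists with 117 members. Genes activated in the 2-cell embryo or linked to genome activation were described by 8 lists with 77 members, some of them also stored in the egg. No gene was in both kinds. Of the maternal members 116 were listed, 111 reached a mean of 1 FPKM and 101 had 10 FPKM or more. Of the activated members 67 were listed, 65 reached a mean of 1 FPKM and 58 had 10 FPKM or more. The median over the listed members was 60.0 FPKM for maternal and 81.1 FPKM for activated genes, beside 2.44 FPKM over all 15707 genes listed.

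By share of summed FPKM the maternal lists were the larger. They held 10.7%, 9.24% and 8.89%, a mean of 9.60% ± 0.935 (SD, n = 3). The activated lists held 2.84%, 2.56% and 2.72%, a mean of 2.71% ± 0.144 (SD, n = 3). The ratio of the shares was 3.75, 3.61 and 3.27, a mean of 3.54 ± 0.249 (SD, n = 3), above 1 in every library. This ratio is of these lists and not of all maternal to all embryonic RNA, since the lists differ in size and a transcript of a gene made in both phases cannot be assigned to either. It rested on few genes: Zbed3 alone held 21.4% of the maternal share and the top 10 members 61.1%, and without Zbed3 the ratio was 2.79. In the activated lists Obox5 held 14.1% and the top 10 members 52.7%. Without the Obox genes and the transcription factors, which the egg also stores in part, the activated share was 1.77% and the ratio 5.44. Without families of near-identical copies and all genes named Gm, Gm20594 among them, the activated share was 1.24% and the ratio 8.61. Without the 10 most abundant genes the maternal share was 6.58%, the activated share 3.48% and the ratio 1.89.

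**Figure D2:**
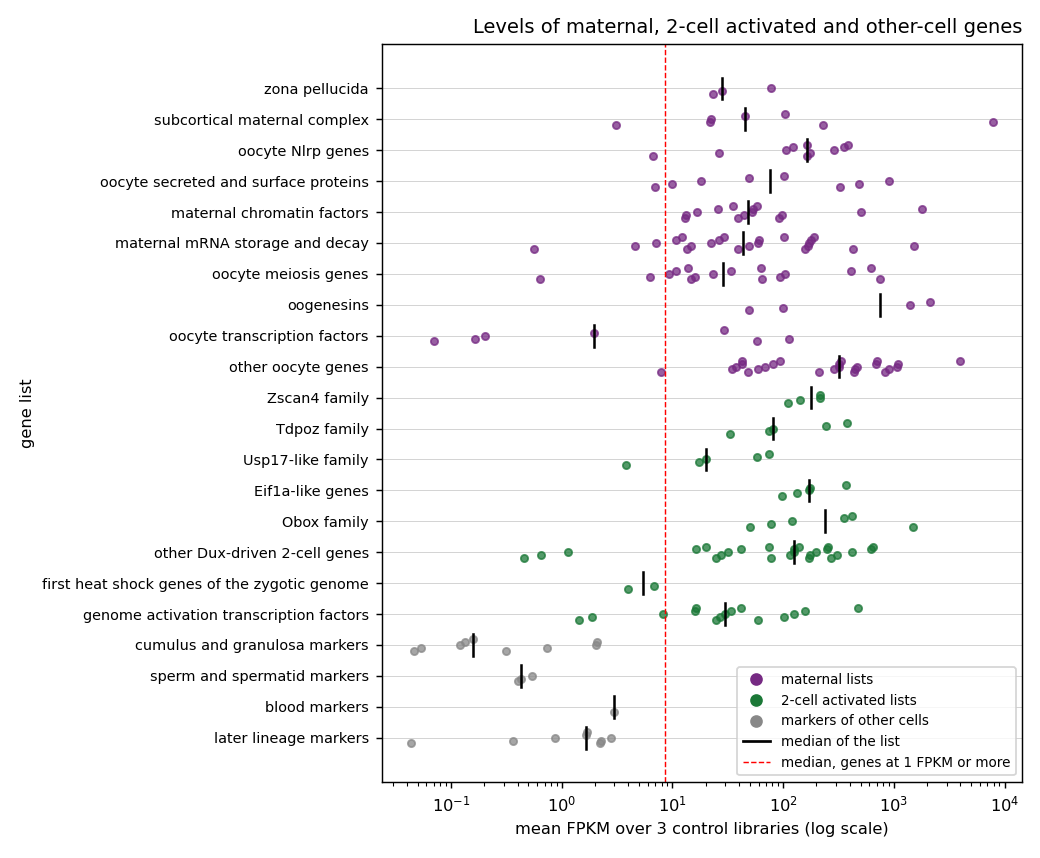
Mean FPKM over the 3 control libraries of each listed member (points) of the maternal, 2-cell activated and other-cell lists, on a log scale, with the median of each list (bar) and the median of genes whose mean reached 1 FPKM (dashed line, 8.62 FPKM). Most maternal and activated lists lie to the right of the dashed line, and all 4 lists of other cells and later lineages lie to its left.

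Among the maternal lists, the coat of the egg was the least abundant in share, but it has only 3 genes. Its median level was 28.2 FPKM, above the 1.95 FPKM of the oocyte transcription factors. Zp2, the zona protein cleaved after fertilisation, was at 80.6, 91.6 and 62.3 FPKM, and Zp1, the cross-linker of the coat, at 27.0, 27.3 and 15.2 FPKM. Like Zp3, both were lowest in control 3. All 3 zona genes together held 0.0334% of summed FPKM.

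The subcortical maternal complex, a protein lattice under the egg cortex that embryos need to pass the 2-cell stage, was listed in full. Ooep was at 224, 183 and 278 FPKM, Nlrp5 (MATER) at 83.4, 111 and 120.1 FPKM and Padi6 at 45.2, 44.0 and 47.4 FPKM. Nlrp2 was at 21.6, 21.5 and 23.2 FPKM, Tle6 at 33.2, 17.8 and 15.1 FPKM and Khdc3 (FILIA) at 4.64, 3.07 and 1.54 FPKM. Thus members of this complex spanned a range from 3.08 FPKM in the mean for Khdc3 to 228 FPKM for Ooep, with Zbed3 far above them at 7916 FPKM. Padi6 and Nlrp2 hardly varied between libraries (coefficients of variation 0.0382 and 0.0435), while Khdc3 was 0.503.

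Oocyte Nlrp genes, relatives of the inflammasome sensors expressed in the germ line, had 10 of 11 members listed, Nlrp4d being the exception. Nlrp4e was the highest at 369, 379 and 397 FPKM, followed by Nlrp14 at 290.2, 341 and 443 FPKM and Nlrp4f at 237, 301 and 332 FPKM. Nlrp9a, Nlrp4a, Nlrp9c, Nlrp4g and Nlrp9b had means of 176, 166, 164, 122 and 106 FPKM. Nlrp4b and Nlrp4c were lower, with means of 26.2 and 6.62 FPKM. The share of the list was 0.391%, 0.439% and 0.594%, lowest in control 1 and highest in control 3. Of the secreted and surface proteins, Bmp15, the oocyte growth factor that acts on granulosa cells, was at 494, 460 and 503 FPKM, and its partner Gdf9 at 118, 104 and 84.6 FPKM. Oosp3, an oocyte-secreted protein, was at 1031, 952 and 718 FPKM, Oosp1 at 477, 333 and 176 FPKM and Oosp2 at 44.3, 57.6 and 44.7 FPKM. Izumo1r (Juno), the egg receptor for the sperm protein Izumo1, was at 22.9, 20.5 and 10.5 FPKM. Cd9, a tetraspanin needed for sperm and egg fusion, had a mean of 9.97 FPKM, and Astl, the protease that cleaves Zp2, a mean of 6.98 FPKM. Transcripts of the fertilisation machinery thus stood below those of the growth factor Bmp15 and of Oosp3 and Oosp1.

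Maternal chromatin factors were all 14 listed at 10 FPKM or more. After Dppa3, the next was Zfp57, which keeps methylation at imprinted regions, at 599, 405 and 520 FPKM. Ctcf, the insulator protein, was at 84.7, 105 and 106 FPKM, and Npm2, the histone chaperone of the egg, at 111, 78.7 and 87.0 FPKM. Other members of the list lay between 13.0 and 58.4 FPKM in the mean. Storage and decay of maternal mRNA was represented by 22 genes, all listed. Eif4enif1, a repressor that binds the cap-binding protein eIF4E, was at 352, 395 and 549 FPKM. Eif4e1b, an oocyte form of eIF4E, was at 232, 215 and 128 FPKM, and Dazl, an RNA-binding protein of germ cells, at 145, 174 and 215 FPKM. Eif4e1b and the other storage genes had no common order of libraries, and the share of the list varied little, at 0.847%, 0.826% and 0.894%.

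Meiosis genes included Wee2, the kinase that holds the oocyte in meiotic arrest, at 765, 832 and 671 FPKM. Pttg1, the securin that blocks separase, was at 658, 716 and 478 FPKM, and Ccnb1, cyclin B1, at 360.3, 407 and 454 FPKM. Mos, the kinase that keeps the egg in metaphase of the second division, was the lowest of the list at 1.56, 0 and 0.35 FPKM and was named after its values were seen. The oogenesins Oog3 and Oog1 were at 1866, 2282 and 2160 FPKM and at 1316, 1458 and 1393 FPKM, with Oog2 and Oog4 at means of 99.7 and 48.9 FPKM. Levels of oocyte transcription factors, which act earlier, in follicle formation, were uneven. Nobox was at 97.4, 106 and 138 FPKM, Lhx8 at 65.8, 47.9 and 62.0 FPKM and Taf4b at 30.6, 28.0 and 28.8 FPKM. Figla, Sohlh1 and Taf7l had means of 0.07, 0.203 and 0.167 FPKM, and Sohlh2 a mean of 1.95 FPKM. The list of further oocyte genes was led by Omt2b, Spin1, Omt2a and Rfpl4, given above, and held the largest share of any maternal list, 4.05%, 3.16% and 2.51%. It includes 6 Tcl1 genes, relatives of the AKT coactivator TCL1, which lie together at chr12:105147019-105222737 and held 0.815% ± 0.204 (SD, n = 3) of summed FPKM.

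Among the activated lists, the Zscan4 family was represented by 4 of its 9 members. Zscan4f was at 208, 174 and 270.3 FPKM, Zscan4b at 99.6, 112 and 212 FPKM and Zscan4c at 84.6, 116 and 131 FPKM. Together with Zscan4d they held 0.138%, 0.156% and 0.253% of summed FPKM, highest in control 3. The 5 members not listed were Zscan4a, Zscan4e and 3 pseudogenes. The Tdpoz family, listed in full, lies at chr3:93651542-93961314. After Tdpoz2 came Tdpoz3 at 216, 188 and 330.2 FPKM, with Tdpoz4, Tdpoz5 and Tdpoz1 at means of 81.1, 74.7 and 32.9 FPKM. Usp17-like genes, which encode deubiquitinating enzymes, lie at chr7:103250086-104862667. Usp17lc was at 93.9, 59.6 and 71.8 FPKM and Usp17lb at 74.98, 54.4 and 46.6 FPKM, followed by Usp17ld, Usp17la and Usp17le at means of 20.1, 17.6 and 3.85 FPKM. This family was the lowest in share of the repeated families, at 0.0457%.

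Genes resembling the initiation factor Eif1a were closer together. Gm4027 was at 348, 347 and 414 FPKM, and Gm5662, Gm2016, Gm8300 and Gm2022 had means of 174, 171, 132 and 98.5 FPKM. The Obox homeobox genes, some of which the egg also stores, held the largest share of the 5 families, 0.738%, 0.651% and 0.554%. Obox5 was at 1660.5, 1619.7 and 1155 FPKM, Obox3 at 576, 446 and 236 FPKM and Obox1 at 415, 325 and 335 FPKM. Obox2, Obox7 and Obox6 had means of 120, 78.1 and 49.9 FPKM. The 6 listed Obox genes had their highest value in control 1. Of them 5 were also lowest in control 3, an order that 2903 of all 9762 genes whose mean reached 1 FPKM had. Zscan4b, Zscan4c and Zscan4d were lowest in control 1 and highest in control 3, as were 1424 of the 9762, while Zscan4f was lowest in control 2.

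Of the other genes known to be driven by Dux, Zfp352, a zinc finger gene, was at 608, 701 and 656 FPKM, Sp110, a nuclear body protein, at 766, 566 and 522 FPKM, Gm12794 at 417, 383 and 455 FPKM and Gm20767 at 335, 353 and 228 FPKM. Dux itself, transcribed briefly at the onset of genome activation, was near 0 at 0.42, 0.78 and 0.18 FPKM and was likewise named after its values were seen. Hspa1b and Hspa1a, heat shock genes known as early products of the mouse zygotic genome, were also low, at 9.97, 4.82 and 5.67 FPKM and at 4.12, 5.12 and 2.64 FPKM. These 3 early genes therefore stood below the median of 8.62 FPKM in the mean. Transcription factors linked to genome activation were led by Klf17, a Krüppel-like factor, at 442, 509.7 and 470.2 FPKM. Yap1, the transcriptional partner of the TEAD proteins, was at 158, 153 and 157 FPKM, Nelfa, a subunit of negative elongation factor, at 143, 116 and 119.8 FPKM and Dppa2 at 89.3, 111 and 108 FPKM.

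Markers of other cells were scarce. Of 15 cumulus and granulosa cell markers 9 were listed, and 3 exceeded 1 FPKM in any library. Amhr2 was at 3.09, 2.11 and 1.08 FPKM, Cyp19a1, the aromatase, at 0.81, 2.49 and 2.85 FPKM and Star, which carries cholesterol into mitochondria, at 0.15, 1.44 and 0.61 FPKM. Among the members not listed in any library were Inha, Inhba, Foxl2 and Amh. Of 10 sperm and spermatid markers 3 were listed, with Prm2, a protamine, at 0, 0 and 1.61 FPKM and Pgk2 at up to 1.05 FPKM, and of 6 blood markers 1 was listed, Hba-a1, at 1.61, 6.75 and 0.60 FPKM. The summed share of the cumulus list was between 0.00119% and 0.00179% per library. Because embryos were pooled in bulk, few contaminating cells and little RNA per cell cannot be told apart. Markers of later lineages were low as well: 8 of 10 were listed, Cdx2 and Elf5 were not, and the highest were Sox2 at 3.71, 2.66 and 2 FPKM, Eomes at 1.08, 4.44 and 1.24 FPKM and Nanog at 3.27, 1.88 and 1.57 FPKM. Krt18 and Gata3 reached at most 2.88 and 2.54 FPKM.

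Factors of the pluripotent state other than these were mixed. Pou5f1 (OCT4), which the egg also stores, was at 191, 155 and 104 FPKM and was the only one of 10 above 100 FPKM. Lin28a, an RNA-binding protein, was at 31.7, 28.8 and 19.8 FPKM, Sall4 at 28.4, 29.2 and 18.2 FPKM and Tbx3 at 22.4, 13.8 and 18.2 FPKM. Zfp42 (REX1), Esrrb and Tfcp2l1 had means of 8.18, 3.06 and 1.69 FPKM, and Klf2, Prdm14 and Utf1 had means of 0.953, 0.307 and 0.38 FPKM.

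Cleavage-stage mouse embryos are known to use pyruvate and lactate before glucose. Metabolic genes had a wide range of levels within their pathways. Ldhb, the heart-type lactate dehydrogenase subunit, was at 368, 346 and 261 FPKM, while the muscle-type subunit Ldha was at 11.7, 10.8 and 12.6 FPKM. The values of Ldhb exceeded those of Ldha in every library. Gapdh was at 131, 111 and 85.2 FPKM, Aldoa, an aldolase, had a mean of 43.2 FPKM, and the pyruvate carriers Mpc1 and Mpc2 had means of 67.8 and 40.6 FPKM. Hexokinases Hk1 and Hk2 and phosphofructokinases Pfkl, Pfkm and Pfkp, at the entry of glycolysis, had means of 0.72, 1.80, 1.68, 0.62 and 2.35 FPKM. The hexokinases, the phosphofructokinases, Ldha and Mpc2 were named after their values were seen. In the tricarboxylic acid cycle, Cs, citrate synthase, stood at 309, 333 and 300.2 FPKM, with Suclg2, Dlst and Sdha at means of 35.7, 33.8 and 27.0 FPKM.

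Chaperones held 0.432%, 0.454% and 0.613% of summed FPKM. Hsp90aa1 was at 459, 543 and 763 FPKM and Hsp90ab1 at 440.0, 454 and 511 FPKM, both lowest in control 1 and highest in control 3. Hsp90b1 and Hspa8 had means of 119 and 115 FPKM. Antioxidant genes were led by peroxiredoxins and a superoxide dismutase: Prdx1 at 245, 259 and 151 FPKM, Prdx2 at 195, 174 and 78.7 FPKM and Sod1 at 131, 87.7 and 104 FPKM. Gpx1, a glutathione peroxidase, was at 42.8, 29.7 and 7.42 FPKM. All 18 antioxidant genes were listed and reached a mean of 1 FPKM, but 11 of them lay below 10 FPKM, Nqo1 and Hmox1, inducible by oxidative stress, among them at means of 1.12 and 2.79 FPKM; these were named after their values were seen. Of 22 imprinted genes 15 were listed. Mest, expressed from the paternal allele, was at 54.2, 54.5 and 42.3 FPKM, followed by Snrpn, Zrsr1 and Grb10 at means of 12.7, 8.44 and 7.63 FPKM. Noncoding imprinted RNAs (H19, Meg3, Kcnq1ot1, Xist and Peg13) were not listed, and whether the authors quantified them was not examined. In the cytoskeleton list Tubb4b, a beta tubulin, was at 196, 136 and 134 FPKM, Cfl1, cofilin, at 181, 147 and 119 FPKM, Tuba1c at 116, 84.3 and 54.7 FPKM and Actb, cytoplasmic actin, at 74.6, 71.5 and 51.6 FPKM.

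Functional classes drawn from symbol patterns differed in share and in how stable that share was. Ubiquitin conjugation, 178 genes, held 2.48%, 2.45% and 2.80%. Zinc finger genes named Zfp, 351 in number, held 1.48%, 1.47% and 1.68%, translation factors 1.08%, 1.07% and 1.17%, splicing factors 1.10%, 0.972% and 1.03% and proteasome subunits 0.340%, 0.297% and 0.311%. In these classes the SD over libraries was small beside the mean share, with coefficients of variation from 0.0535 to 0.0771. Snrpg, a core protein of spliceosomal particles, was at 915, 743 and 301 FPKM, and Hnrnpu and Hnrnpf, which bind pre-mRNA, had means of 193 and 163 FPKM. Lsm14a, placed with the splicing factors by its symbol but known from mRNA storage granules, had a mean of 537 FPKM. Eef1a1, the elongation factor that delivers transfer RNA, was the highest translation factor at 754, 876 and 858 FPKM. Psme4, the proteasome activator PA200 known for degrading acetylated histones, led the proteasome list at 410.3, 399 and 357 FPKM, ahead of Psme3, Psmb2 and Psmd4 with means of 99.3, 65.6 and 55.6 FPKM. Ubb, a polyubiquitin gene, was at 803, 671 and 299 FPKM, and Ube2c, the ubiquitin-conjugating enzyme of the anaphase-promoting complex, at 502, 364 and 282 FPKM. Olfactory and vomeronasal receptors, a class not known to act in embryos, served as a low reference: 265 were listed, with a median of 0.107 FPKM and a share of 0.0580%, 0.0604% and 0.0748%, and the highest, Olfr976, was at 36.4, 42.8 and 42.5 FPKM.

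**Figure D3:**
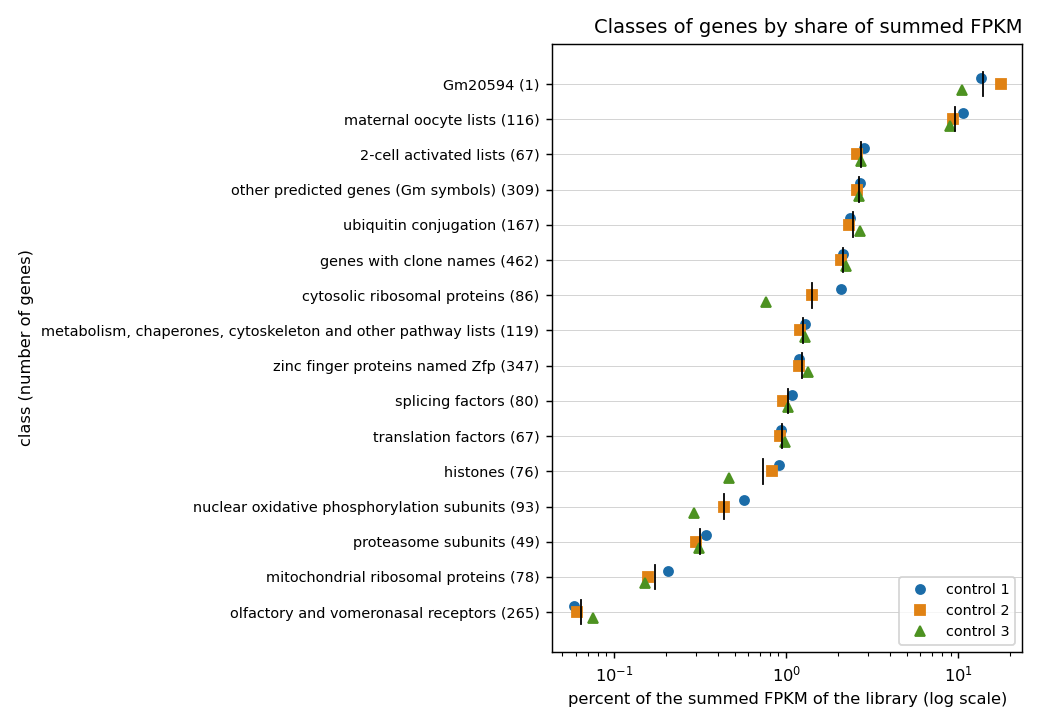
Percent of summed FPKM held by each class in each control library, on a log scale, with each gene counted once and the number of genes in brackets; the bar is the mean of 3 libraries. Cytosolic ribosomal proteins, histones and oxidative phosphorylation subunits are spread over the libraries, and the translation, proteasome and 2-cell activated classes are not. A remaining class of other named genes, 57.2%, 56.1% and 63.7%, is left out.

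Cytosolic ribosomal protein genes varied most among these classes. They held 2.08%, 1.42% and 0.759% of summed FPKM, or 1.42% ± 0.661 (SD, n = 3). Of the 86 listed genes, 79 had their highest FPKM in control 1 and their lowest in control 3, as did 2903 of all 9762 genes (29.7%) whose mean reached 1 FPKM. Rps27l was at 471, 306 and 88.9 FPKM, Rpl23a at 255, 261 and 79.0 FPKM, Rps26 at 333, 162 and 70.3 FPKM and Rpl4 at 218, 196 and 158 FPKM. Pseudogene copies of ribosomal protein genes are many in the mouse genome, so single members are uncertain. Histone genes followed with 0.919%, 0.836% and 0.472%. Hist1h4c, a replication-dependent histone H4, was at 288, 265 and 95.0 FPKM, and H2afz, the variant H2A.Z, at 309.9, 248 and 128 FPKM. The H3.3 genes H3f3a and H3f3b were at 399.7, 372 and 353 FPKM and at 228, 206 and 144 FPKM. Nuclear oxidative phosphorylation subunits held 0.567%, 0.435% and 0.292%. Cox8a, a subunit of cytochrome c oxidase, was at 524, 302 and 129 FPKM, and the ATP synthase subunits Atp5b and Atp5g1 at 138, 122 and 97.5 FPKM and at 154, 92.0 and 42.7 FPKM. Cox6b2, another cytochrome c oxidase subunit, was at 134, 81.8 and 26.7 FPKM. All 4 had the same order of libraries, and the decline was smallest for Atp5b. Mitochondrial ribosomal proteins held 0.206%, 0.157% and 0.152%. Their most abundant members did not share 1 order: Mrps2 was at 54.5, 48.0 and 51.9 FPKM, Mrpl48 at 47.5, 42.4 and 45.7 FPKM, Mrpl18 at 51.9, 46.0 and 33.7 FPKM and Mrps33 at 27.4, 52.0 and 45.1 FPKM.

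These classes consist mostly of short genes, and the difference between libraries moved with the genomic span of the gene. The 9748 genes that reached a mean of 1 FPKM and had a RefSeq span were put in 5 groups of equal size by span. For control 3 minus control 1 the median difference of log2(FPKM + 1) was -0.67 in the group of shortest genes (334 to 8683 bases), -0.38, -0.20 and -0.01 in the next groups and 0.09 in the group of longest genes (76566 to 2390387 bases). For control 2 minus control 1 the medians were -0.24 in the shortest and 0.04 in the longest group, the same direction at a smaller size. Control 1 and control 3 were thus the most different pair, with control 2 between them. Within classes, the median difference between control 3 and control 1 was -1.59 for ribosomal proteins, lower in control 3 for 84 of 84 genes where 61.3% of all genes were, and -1.39 for histones, lower for 60 of 60. It was -0.98 for oxidative phosphorylation subunits, -0.74 for mitochondrial ribosomal proteins and -0.29 for splicing factors. Splicing factors among the shortest genes had a median of -1.13. Among the shortest genes other than ribosomal proteins the median was -0.63, lower in control 3 for 1448 of 1869. Not every class of short genes did this: the 39 olfactory and vomeronasal receptors whose mean reached 1 FPKM, with a median span of 1102 bases, had a median of 0.07. For the maternal lists the median was -0.15, lower in 66 of 111 genes, and for the activated lists -0.36, lower in 49 of 65, beside -0.19 and 5979 of 9748 over all genes. All these differences are of FPKM without rescaling and so include the lower summed FPKM of control 3. Spans include introns and are not transcript lengths, and the part of span in these differences was not tested.

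**Figure D4:**
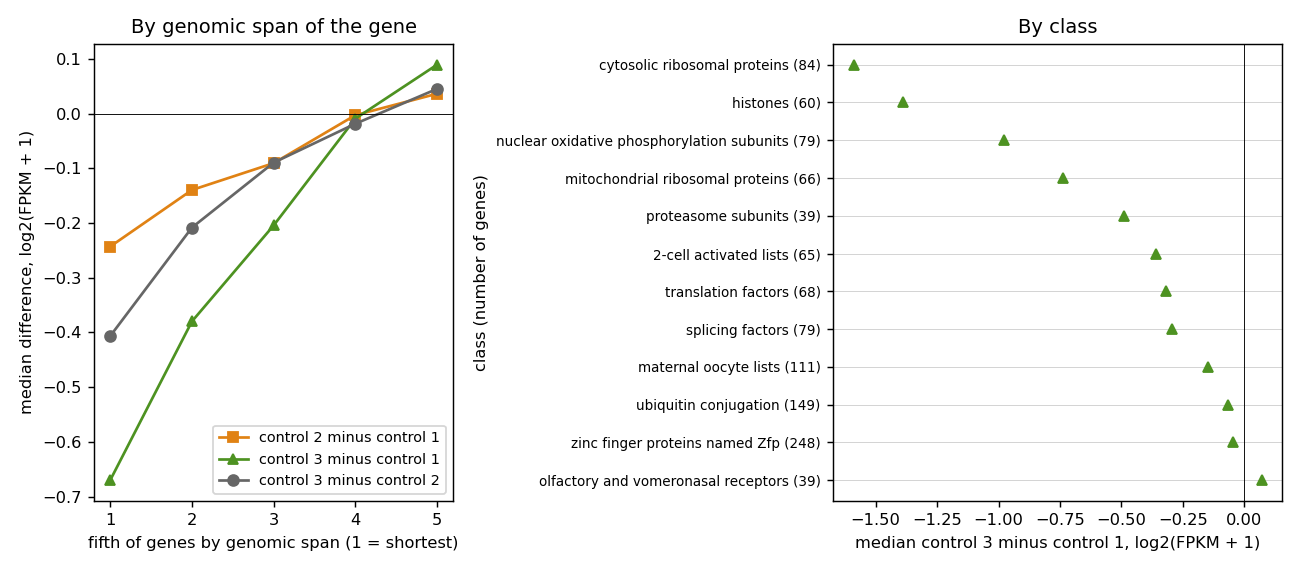
Left, median difference of log2(FPKM + 1) between pairs of control libraries in 5 groups of genes by genomic span, from shortest to longest; right, median difference between control 3 and control 1 for each class, with the number of genes in brackets. The lines climb from -0.67, -0.24 and -0.41 in the shortest genes to slightly above 0 in the longest. Ribosomal proteins and histones lie farthest to the left. FPKM were not rescaled to the summed FPKM of each library.

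Agreement of the libraries was measured over all expressed genes at once. Across the 9762 genes whose mean reached 1 FPKM, Pearson's r of log2(FPKM + 1) was 0.948 between control 1 and 2, 0.929 between control 1 and 3 and 0.947 between control 2 and 3. Spearman's rho for the same pairs was 0.933, 0.914 and 0.934. These coefficients are across genes, which are not independent replicates, and are given without p. Genes more than 2-fold apart on this scale numbered 970 (9.94%), 1622 (16.6%) and 1020 (10.4%) in these pairs. Precision depended on the level: the median coefficient of variation was 0.353 for the 5243 genes between 1 and 10 FPKM, 0.200 for the 3864 genes between 10 and 100 FPKM, 0.165 for the 634 genes between 100 and 1000 FPKM and 0.142 for the 21 genes above.

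**Figure D5:**
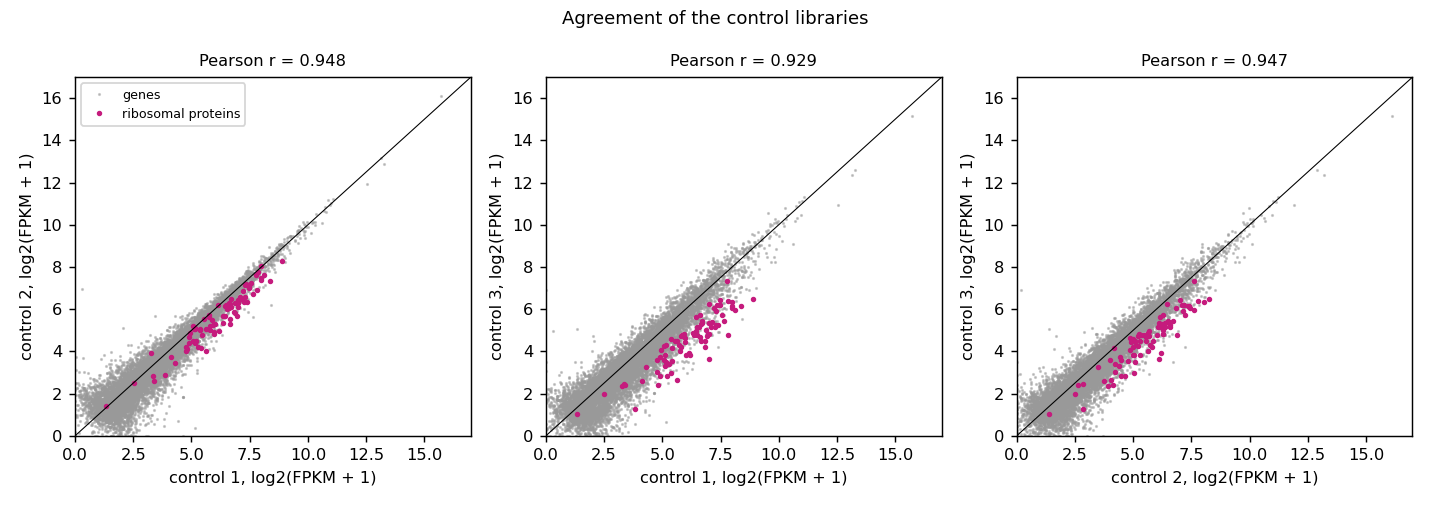
Log2(FPKM + 1) of each gene whose mean reached 1 FPKM in each pair of control libraries (grey points), with cytosolic ribosomal protein genes in magenta and the line of equality. Genes follow the line with r of 0.948, 0.929 and 0.947, and most ribosomal protein genes lie below it, farthest in the pair of control 1 and control 3.

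Among genes whose mean reached 10 FPKM, the least variable in FPKM was Bub1b, a spindle checkpoint protein, at 13.79, 13.75 and 13.81 FPKM. In share of summed FPKM Bub1b was higher in control 3, at 0.00342%, 0.00341% and 0.00402%. Dvl3, a transducer of Wnt signals, was at 26.9, 26.6 and 27.0 FPKM and St13, a cofactor of HSP70, at 169, 169.8 and 172 FPKM. The others of the 10 least variable genes were Hnrnph1, Csnk1g1, Myh10, Zfp770, Aff1, Npat and Rab27a, with coefficients of variation up to 0.0118. At the other end, Gm11237 was at 0, 0.15 and 119 FPKM and Gm11236 at 168, 149 and 17.3 FPKM. Gm5891 was at 0.22, 122 and 29.97 FPKM and Tfec, a transcription factor of the MiT family, at 34.9, 0.30 and 0.56 FPKM. Gm11237 and Tfec were near 0 in all libraries but 1, and Gm5891 in control 1, whereas Gm11236 was lowest, but not near 0, in control 3. Cphx1, a homeobox gene, was at 23.7, 0 and 6.36 FPKM, Rps27, a ribosomal protein, at 126, 68.5 and 11.5 FPKM and Gm4302 at 60.8, 104 and 10.5 FPKM. Hdgfrp2, Txnl4b and Ssr2 completed the 10 most variable genes. Hdgfrp2 and Txnl4b were high in control 3 alone, at 32.4 and 25.3 FPKM, and Ssr2 was lowest there, at 1.34 FPKM.

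The most abundant genes were partly clustered in the genome. Of the 310 most abundant genes with a RefSeq position, 69 (22.3%) had another of the 310 within 200 kb, compared with 42 (13.5%) and 47 (15.2%) in the next sets of 310 by level. Several of these neighbours are copies. Obox5, Obox3 and Obox1 on chromosome 7 rank 11, 83 and 105 by mean level, while Obox2, Obox7 and Obox6 rank below the 310. The pair Omt2a and Omt2b spans chr9:78311972-78329620 and held 1.28% ± 0.574 (SD, n = 3). The Zscan4 genes were not neighbours of each other in this count. Zscan4b and Zscan4c rank 422 and 575, and Zscan4d and Zscan4f lie more than 200 kb apart. The part of copies in the difference was not tested. By chromosome, chromosome 9 held 8.17% of summed FPKM, chromosome X 2.65% from 639 genes and chromosome Y 0.00339% from 20 genes, of which the highest single value was 6.52 FPKM.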

How the data were processed

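The authors deposited FPKM per transcript for each embryo library, and transcripts at 0 were not listed. HISAT2 2.0.4, DESeq2 and the build mm10 are named, per the submitters' processing notes, without their roles. Libraries were made with a Nugen Trio kit, per the labels' protocols. How FPKM were computed, the strand setting and the treatment of reads that fit several genes are not given in the sources used here. FPKM were summed over the transcripts of each gene ID, and a gene missing from a library was taken as 0. The sums were compared with the authors' deposited gene-level table for the 10176 genes that had values there and a gene ID listed here. All of these matched within 0.02 FPKM in each library. Low values were searched for steps of whole reads and none were found, so depth is unknown and no counting error is given. Symbols and positions came from RefSeq (GRCm38.p6), which matched 15677 of 15707 gene IDs; 23 symbols that had turned into dates were replaced.

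Shares are percentages of a library's summed FPKM. Correlations and the coefficient of variation used genes whose mean reached 1 FPKM, with a pseudocount of 1 on the log2 scale. Scripts were tested on simulated data. Named are the 30 most abundant genes, the markers, members of each list or class (from short ones all, otherwise from the 4 highest) and the 10 most and least variable genes whose mean reached 10 FPKM; values are given for fewer in some lists, and genes outside the rule are marked in the text. Members and lists were chosen with earlier results of these data known. Alternatives were another filter, pseudocount, correlation or spread measure, and the highest transcript of each gene. Others left out abundant genes, a library, or near-identical families together with all genes named Gm. Further settings were added once values had been seen (chosen after seeing the data). Sequences came from the first RefSeq entry of each gene. Python 3.11.15, pandas 2.3.3, NumPy 2.4.6, SciPy 1.17.1 and matplotlib 3.10.9 were used. Exposed embryos and sperm were not analysed here.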

Additional observations from a re-analysis of the deposited data

How the results depend on the processing

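No paired analysis was possible because 1 group was described and no test was made. Of 57 alternative values, not counting left-out libraries, 20 moved by the rule set for their kind. Shares and the ratio were set against their SD over libraries, and gene counts against a fixed fold change. The correlation was set against its SD over pairs of libraries, and the coefficient of variation against the SD of its left-out values. The number of genes listed in all libraries could not move under the highest transcript or among only those genes. Leaving out the 10 most abundant genes gave 619 genes for 50% of summed FPKM, a maternal share of 6.58%, an activated share of 3.48% and a ratio of 1.89. Leaving out families with near-identical copies and all genes named Gm, Gm20594 among them, gave 504 genes, 10.7%, 1.24% and 8.61. Among settings added once values had been seen, omitting Obox genes and transcription factors gave an activated share of 1.77% and a ratio of 5.44; omitting Zbed3 gave a maternal share of 7.71% and a ratio of 2.79; and omitting Gm20594 gave 490 genes, 11.2% and 3.14%. The mean correlation of the libraries, 0.941, was 0.964 with no filter on low values, 0.913 with a pseudocount of 0.1 and 0.927 as Spearman's rho. The median coefficient of variation, 0.264, was 0.421 with no filter, and as an SD of log2(FPKM + 1) the spread was 0.327. The ratio stayed above 1 in all of these settings. With 1 library left out, 12725 to 13071 genes were listed in both others and 286 to 336 held 50%. The maternal share was 9.07% to 9.95%, the activated share 2.64% to 2.78% and the ratio 3.44 to 3.68. The ribosomal protein share was 1.09% to 1.75%, the oxidative phosphorylation share 0.364% to 0.501% and the correlation 0.927 to 0.946. The coefficient of variation was 0.185 to 0.260, over fewer libraries than the 0.264 above and so not directly comparable with it. Of these 27 values 3 moved. With the highest transcript only, 4 of 33 single genes moved: Npm1 to 822 FPKM, Brdt to 1115, Rab7 to 557 and Rfpl4 to 532. The causes were not tested.

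Limits are the unknown depth, the reads of near-identical or overlapping genes, and 3 pooled libraries whose independence the labels do not state.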

Other observations

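Gm11236 and Gm11237, gene models of 6379 and 6415 bases at chr4:73635785-73642163 and chr4:73620615-73627029, had opposite levels in control 3 and the other libraries, but their summed FPKM was 168, 149 and 136 in control 1, 2 and 3. The pair was picked for its steady sum, so that steadiness is no separate result. Of 10 neighbours within 500 kb of Gm11237, Gm11236 gave the least variable sum, with a coefficient of variation of 0.105. The other most variable genes, searched in the same way, had values from 0.254 (Txnl4b) to 1.38 (Tfec). Neither the sequence of the models nor the assignment of reads between them was examined.

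Transcripts from the Y chromosome were low in each pool: Gm20736 was at 6.52, 3.32 and 2.75 FPKM, Eif2s3y, a translation initiation factor subunit, at 2.41, 1.17 and 3 FPKM, Sly, a gene of the Sycp3 family known from spermatids, at 1.77, 1.01 and 1.76 FPKM and Zfy1, a zinc finger transcription factor, at 0.33, 2.37 and 1.11 FPKM. Many Y-linked genes have near-identical copies, on the Y or the X chromosome, so the source of these reads is uncertain.

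CpG content differed between maternal lists of different roles. The median number of CpG dinucleotides per promoter was 27.5 for mRNA storage and decay, 22.5 for chromatin factors and 19.5 for meiosis genes, but 3 for the subcortical maternal complex, 2 for the oocyte Nlrp genes and 1 for the oogenesins, beside 21 over the genes whose mean reached 1 FPKM. CCAAT was found in 12 of the 14 promoters of meiosis genes and in none of the 4 of oogenesins, beside 41.1% over the genes whose mean reached 1 FPKM. It did not follow CpG content across these lists. CCAAT was in 5 of 7 promoters of the subcortical maternal complex, 5 of 8 of Nlrp genes and 5 of 12 of chromatin factors. These differences were noticed after the values were seen and were not tested.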
